A study of Mus musculus with 8 samples.

Results

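Genes of cholesterol and fatty acid synthesis were followed across T helper cell types of the mouse. The list named 39 genes by symbol, and each was read from its probe set of highest mean level across the 8 arrays. Acat2 had no probe set with that symbol alone and was not analysed here, which left 38 of the 18193 genes with a probe set. All 38 were among the 11178 genes that passed a filter on low values and were tested. They comprised 17 enzymes on the path from acetyl-CoA to cholesterol, 6 regulators of sterol sensing and transport, 13 enzymes that make, desaturate, elongate or activate fatty acids, and 2 transporters that export cholesterol.

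Each of 4 groups had 2 Affymetrix arrays. Tfh cells were CD4+ CXCR5+ T cells sorted from spleen 7 days after C57BL/6 mice had been immunized with KLH (keyhole limpet haemocyanin), and were restimulated with anti-CD3 for 4 h before RNA was taken. Th1, Th2 and Th17 cells were grown for 5 days from naive CD4 T cells of OT-II mice, which carry a T cell receptor transgene on a C57BL/6 background and were 6 to 8 weeks old. All 3 cultures received OT-II peptide and antigen-presenting cells. Th1 cultures also received IL-12 (10 ng/ml) and anti-IL-4, Th2 cultures IL-4 (10 ng/ml) and anti-IFNg, and Th17 cultures IL-6 (20 ng/ml), TGFb, anti-IL-4 and anti-IFNg. Cell type, source, receptor transgene, culture and stimulation therefore all differed between Tfh and the other groups and cannot be told apart. Nothing in the labels tells whether the arrays of a group stem from different animals or culture wells. A p-value here measures only the spread between the samples, which may be technical.

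Cholesterol is made from acetyl-CoA through mevalonate, farnesyl pyrophosphate, squalene and lanosterol, and dividing lymphocytes need both sterols and fatty acids to build membrane. The transcription factors SREBP-1 and SREBP-2, encoded by Srebf1 and Srebf2, switch on the enzymes of both arms when sterols are scarce. Scap escorts the SREBPs to the Golgi for cleavage, and Insig1 and Insig2 hold Scap back in the endoplasmic reticulum when sterols are plentiful. At many sterol promoters SREBP acts together with the factors NF-Y and Sp1, whereas sterol excess, sensed by LXR, turns on the exporters Abca1 and Abcg1.

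The sequence at the start of these genes was read from the RefSeq promoter table of build GRCm38.p6, which held a window of 250 bases before to 50 bases after the gene start for 30 of the 38 genes. The windows of 4 sterol enzymes are shown: Msmo1 and Mvd, whose values lay farthest apart between arrays of 1 type, Hmgcs1, which held a sterol response element, and Hsd17b7, which was highest in both Th2 arrays. They are Hmgcs1, the HMG-CoA synthase (chr13:119690101-119690400, plus strand), Msmo1, which removes methyl groups from sterol C4 (chr8:64733529-64733828, minus strand), Mvd, the mevalonate diphosphate decarboxylase (chr8:122443373-122443672, minus strand), and Hsd17b7, a 3-ketosteroid reductase (chr1:169969156-169969455, minus strand). Each is printed 5′ to 3′ on the strand of its gene, and capitals mark the NF-Y box CCAAT, its reverse complement ATTGG, and the sterol response element core TCACNCCAC.
Hmgcs1: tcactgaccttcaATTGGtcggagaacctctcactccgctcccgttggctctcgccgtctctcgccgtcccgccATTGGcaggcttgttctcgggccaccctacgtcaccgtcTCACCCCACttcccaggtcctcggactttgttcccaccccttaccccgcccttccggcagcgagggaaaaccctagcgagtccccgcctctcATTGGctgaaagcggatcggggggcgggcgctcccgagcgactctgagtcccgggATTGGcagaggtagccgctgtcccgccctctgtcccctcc
Msmo1: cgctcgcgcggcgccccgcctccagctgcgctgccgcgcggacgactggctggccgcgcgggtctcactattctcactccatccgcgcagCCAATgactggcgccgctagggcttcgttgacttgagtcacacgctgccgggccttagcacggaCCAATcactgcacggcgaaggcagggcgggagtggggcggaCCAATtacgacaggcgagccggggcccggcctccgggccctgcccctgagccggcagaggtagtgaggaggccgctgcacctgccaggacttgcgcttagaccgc
Mvd: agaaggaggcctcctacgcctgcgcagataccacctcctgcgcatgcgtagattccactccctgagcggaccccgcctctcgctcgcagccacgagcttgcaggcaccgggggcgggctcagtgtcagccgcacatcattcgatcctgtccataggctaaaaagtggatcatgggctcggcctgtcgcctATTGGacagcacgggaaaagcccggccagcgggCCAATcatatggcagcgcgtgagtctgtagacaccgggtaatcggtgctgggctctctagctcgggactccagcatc
Hsd17b7: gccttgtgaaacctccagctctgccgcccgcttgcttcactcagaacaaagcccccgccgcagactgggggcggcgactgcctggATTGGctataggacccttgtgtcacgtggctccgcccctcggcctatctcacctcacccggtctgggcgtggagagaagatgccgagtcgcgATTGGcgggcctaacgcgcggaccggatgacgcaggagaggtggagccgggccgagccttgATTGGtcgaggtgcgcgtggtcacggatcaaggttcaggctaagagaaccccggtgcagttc

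The NF-Y box was present on either strand in the windows of all 14 sterol enzymes that had one, against 43.06% of the 9126 tested genes with a window. Hmgcs1 held 4 copies, Msmo1 and Hsd17b7 3 each and Mvd 2. The sterol response element core was found in 1 of the 14 sterol enzyme windows, that of Hmgcs1, against 1.4% of tested genes. No copy of it overlapped an NF-Y box there. A looser form, TCACNCNAC, which includes the core, was found in 2 of the 14 (3.36% of tested genes). The Sp1 box GGGCGG was in 13 of 14 (67.55%), and the E-box CACGTG in 3 of 14 (11.8%). Among the 10 fatty acid enzymes with a window, 6 held the NF-Y box. The element of LXR (AGGTCA, 4 free bases, AGGTCA) was in 0 of the 30 windows, but also in 0 of the 9126 windows of tested genes and in 4 of the 27025 genes of the table. These are matches of letters in a short window and were not tied to binding.

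Some features of the arrays bear on every comparison with Tfh. Tested genes were on the whole higher in Tfh, and the median gene differed by 0.84 on the log2 scale from the mean of the 3 cultured types. The differences below are therefore given as deposited and under 3 other scalings. In the first, arrays were shifted so that the medians of their tested genes were equal, named equal medians below. In the second, arrays were shifted so that the median gene did not differ between Tfh and the cultured arrays. The third was quantile normalization. The 2 Tfh arrays were much closer to each other than the arrays of any other group, with 11 of the 11178 tested genes differing by more than 1 on the log2 scale, against 1435 for Th1, 696 for Th2 and 1339 for Th17. Tests were therefore repeated with the Tfh arrays averaged and counted as 1 sample. The median of 6 of 7 listed T cell markers lay between 11.8 and 13.2 in all arrays. Cxcr5, the gene of the sort, was at 11.25 and 11.20 in Tfh and at 3.34 to 8.12 in the cultured arrays. Of 7 listed lineage genes 6 were measured. Ifng was highest in the Th1 arrays, Il4 in the Th2 arrays, Il17a in the Th17 arrays and Bcl6 in the Tfh arrays. Tbx21 and Gata3 separated the groups less: Tbx21 was at 10.66 and 10.59 in Tfh and 10.89 and 9.43 in Th1. Gata3 was at 10.67 and 10.52 in Tfh and 10.44 and 11.13 in Th2. Ifng also reached 14.12 in Th2 replicate 1 and 13.30 in Th17 replicate 1. Markers of other cells moved with the groups: the median of 8 of 8 neutrophil markers was 11.9 and 11.8 in Tfh arrays, 4.31 in Th2 replicate 1 and 2.30 to 2.41 in the other cultured arrays. The median of 9 of 9 monocyte, macrophage and dendritic cell markers was 7.20 and 7.24 in Tfh, 2.62 and 3.96 in Th1, 8.26 and 5.51 in Th2, and 6.26 and 3.97 in Th17. Single markers of this list disagreed. Lyz2 was at 11.42 and 11.31 in Tfh, above all cultured arrays, whereas Mrc1 was at 2.89 and 2.86, below all of them. Itgax was at 2.49 and 2.48 in Tfh and reached 6.80 in Th2 replicate 1. The median of 5 of 6 B cell markers was 7.90 and 7.93 in Tfh and 3.42 to 7.11 in the cultured arrays, and these markers disagreed. Cd79a was at 8.02 and 7.93 in Tfh, Cd79b at 8.30 and 8.38 and Ms4a1 at 7.90 and 7.97, while Blk and Pax5 were below 3.13, the median of all deposited values, in both Tfh arrays. The part of these cells in the results was not tested. In such bulk samples, fewer cells of a type and less RNA per cell cannot be told apart.

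Among the sterol enzymes, arrays of the same cultured type lay far apart. In Th1 replicate 1 the cholesterol path was high nearly throughout and in Th1 replicate 2 it was low. The labels do not say whether arrays of the same number in different groups belong together. Replicate 1 was above replicate 2 in 16 of 17 sterol enzymes in Th1 (44.8% of tested genes) and 14 of 17 in Th2 (57.3%). The count was 16 of 17 in Th17 (54.7%) and 11 of 17 in Tfh (60.8%). For the 17 enzymes the median difference between Th1 replicate 1 and Th1 replicate 2 was 2.10 on the log2 scale, and 14 of 17 were higher by more than 1, which 6.8% of all tested genes were. The median over all tested genes was -0.025. Between the Th17 arrays the median difference was 1.16 and 10 of 17 exceeded 1 (6.45% of tested genes), between the Th2 arrays 0.40 and 2 of 17 (3.98%), and between the Tfh arrays 0.044 and 0 of 17 (0.0358%). No test can be made of a difference between 2 single arrays, so these are descriptions.

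**Figure D1:**
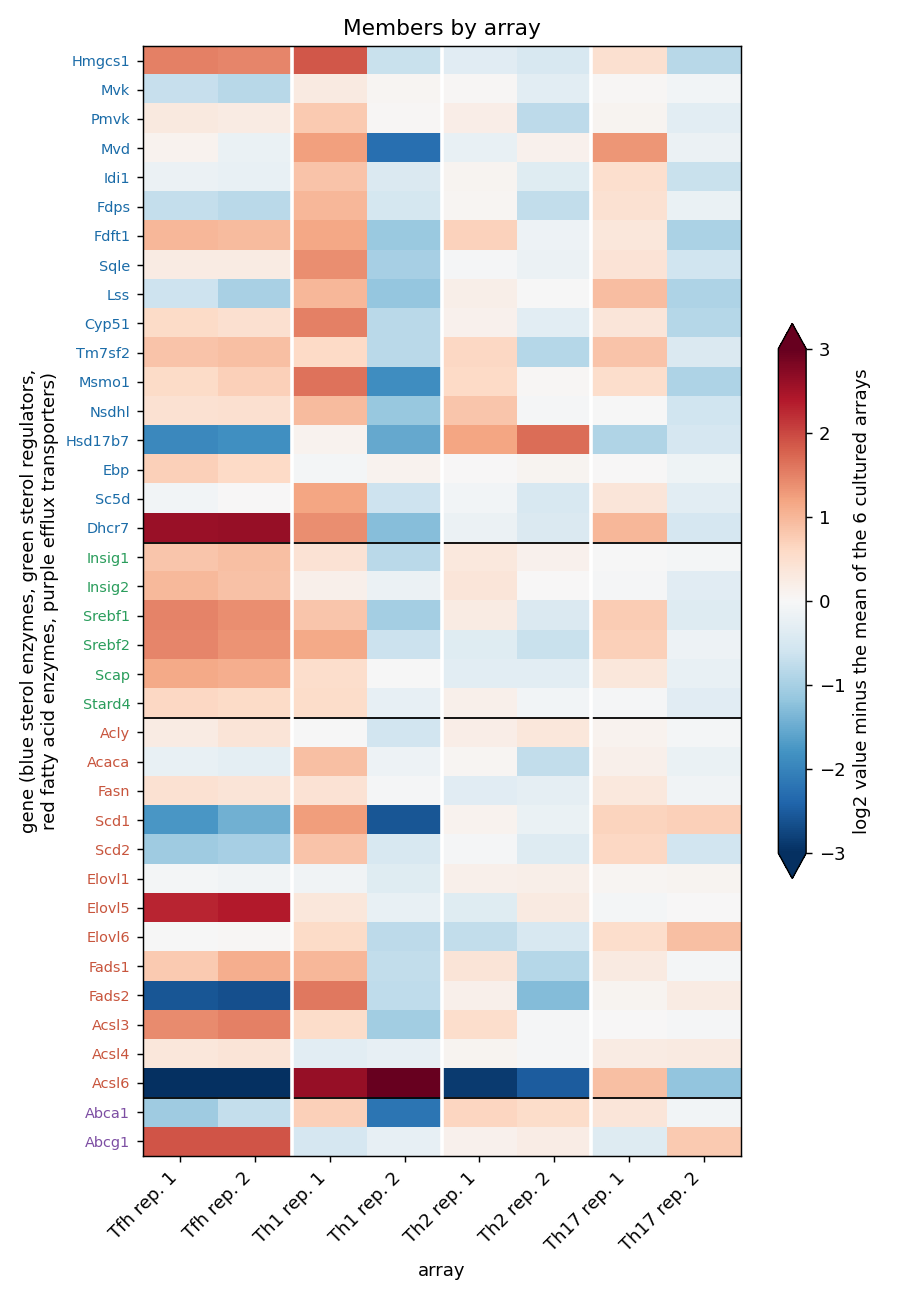
Log2 value of each of the 38 genes (rows, grouped by role) in each of the 8 arrays (columns), minus the gene's mean over the 6 cultured arrays, with red higher and blue lower and the colour scale ending at 3 in either direction. In the upper block of sterol enzymes the Th1 replicate 1 column is mostly red and the Th1 replicate 2 column mostly blue, and the regulators below them are red in both Tfh columns.

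Hmgcs1 had log2 values of 12.52 and 12.47 in Tfh, 12.85 and 10.32 in Th1, 10.66 and 10.53 in Th2, and 11.48 and 10.16 in Th17. Msmo1 had 10.48 and 10.63 in Tfh, 11.54 and 8.04 in Th1, 10.52 and 9.95 in Th2, and 10.44 and 8.98 in Th17. Mvd had 6.48 and 6.19 in Tfh, 7.61 and 4.12 in Th1, 6.16 and 6.50 in Th2, and 7.70 and 6.20 in Th17. In the probe sets used, the Th1 arrays of all 3 genes held both a value above every Tfh array and a value below every Tfh array. For all 3 genes Tfh therefore overlapped Th1. The Tfh arrays of Hmgcs1 did not overlap those of Th2 or Th17, nor the Tfh arrays of Msmo1 those of Th17. As deposited, the differences of the 3 genes from Tfh still did not pass the test in any comparison. For Hmgcs1 they were 1.90 against Th2 (limma adjusted p = 0.094) and 1.67 against Th17 (limma adjusted p = 0.131). A second probe set of Msmo1 did not overlap, with 7.41 and 7.72 in Tfh and 3.62 to 6.30 in the cultured arrays. For Hmgcs1, Tfh minus the mean of the cultured types was 1.49 (SE 0.69, limma adjusted p = 0.098).

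The split was shared along the path and not carried by a few enzymes. Th1 replicate 1 had the highest value of the 6 cultured arrays in 13 of 17 sterol enzymes (15.6% of tested genes), and Th1 replicate 2 the lowest in 9 of 17 (15.83%). The enzymes that differed by less than 1 between the Th1 arrays were Pmvk, the phosphomevalonate kinase (0.75), Mvk, the mevalonate kinase (0.20), and Ebp, the sterol isomerase (-0.15). Other probe sets of the same sterol genes behaved alike: in 16 of 16 that passed the filter Th1 replicate 1 was above Th1 replicate 2, by more than 1 in 14. The pooled SD within the cultured groups had a median of 0.99 for sterol enzymes, 0.58 for fatty acid enzymes and 0.44 for the regulators, against 0.27 over all tested genes. Other genes also separated the Th1 arrays. Il4, a Th2 cytokine, was at 6.11 and 10.60 in Th1 replicates 1 and 2, and the Th2 factor Gata3 at 4.95 and 7.74, while the Th1 cytokine Ifng was at 15.39 and 15.07. Whether these differences bear on the sterol genes was not tested.

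The regulators and the fatty acid enzymes leaned the same way with smaller differences. All 6 regulators were higher in Th1 replicate 1 than in Th1 replicate 2, as 44.8% of tested genes were, with a median difference of 1.02, and 3 of 6 exceeded 1. For the 13 fatty acid enzymes the median was 1.04 and 7 of 13 exceeded 1. Scd1, the stearoyl-CoA desaturase, had the widest gap of the list, with 9.52 and 5.69 in Th1, beside 6.52 and 6.82 in Tfh, 8.36 and 8.05 in Th2, and 8.92 and 8.98 in Th17. Between the Th17 arrays the fatty acid enzymes had a median difference of 0.041, against the 1.16 of the sterol enzymes, so in Th17 the sterol arm differed between arrays and most of the fatty acid arm did not: 2 of 13 exceeded 1. The exporter Abca1 followed the enzymes in Th1, with 8.29 and 5.40, beside 6.50 and 6.87 in Tfh, 8.22 and 8.12 in Th2, and 7.94 and 7.500 in Th17. Abcg1 did not, with 7.37 and 7.62 in Th1.

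**Figure D2:**
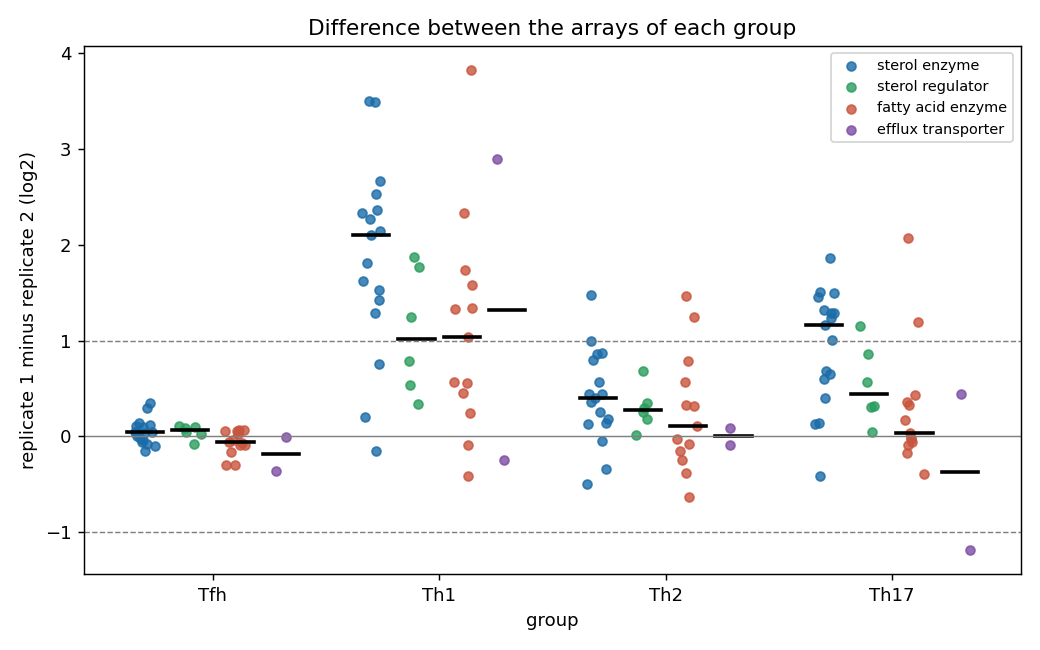
Replicate 1 minus replicate 2 (log2, y axis) for each gene in each group (x axis), coloured by role, with a black line at each median and dashed lines at 1 and -1. The sterol enzymes have a median of 2.10 in Th1 and 1.16 in Th17, while every point in Tfh lies between -0.364 and 0.350.

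A gene was called when its limma p-value, adjusted by Benjamini and Hochberg over all 11178 tested genes, was under 0.05 and its difference at least 1 on the log2 scale. For Tfh minus Th1, 3 of the 38 genes were called higher (42.8% of all tested genes were) and 2 lower (6.16%). For Tfh minus Th2, 5 were called higher (42.8%) and 1 lower (6.89%). For Tfh minus Th17, 5 were called higher (41.8%) and 2 lower (6.17%). For Tfh minus the mean of the 3 types, 6 were called higher (43.7%) and 3 lower (6.66%). The share called higher was thus below that of all tested genes in each comparison, and these comparisons share the Tfh arrays. In all, 10 genes were called in at least 1 comparison and 28 in none.

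Single arrays decided the comparison with Th1. Without Th1 replicate 1, 15 genes were called higher in Tfh than in Th1 (41.8% of tested genes) and 1 lower (6.32%), and the 15 included 6 of 17 sterol enzymes (Dhcr7, Fdft1, Hmgcs1, Msmo1, Mvd and Nsdhl) and 5 of 6 regulators. Without Th1 replicate 2, 2 were called higher (41.5%) and 10 lower (6.49%), and the 10 included 4 sterol enzymes (Fdps, Hsd17b7, Mvk and Sc5d). The median difference of the sterol enzymes was 1.22 without Th1 replicate 1, against -0.99 without Th1 replicate 2. In both fits the remaining Th1 array was assumed to vary like the other groups. The share of the list called higher without Th1 replicate 1 was slightly below that of all tested genes. It was also below for the sterol enzymes taken alone, but above for the regulators. The share of the list called lower without Th1 replicate 2 was above that of all tested genes. With the Tfh arrays averaged as 1 sample, 2 genes were called higher and 1 lower against each of Th1 (36.2% and 4.24% of tested genes), Th2 (36.9% and 4.85%) and Th17 (34.9% and 4.12%), and 3 higher and 1 lower against their mean (38.6% and 4.65%).

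Set against the median gene, most of both synthetic arms stood low in Tfh. The median difference between Tfh and the mean of the cultured types was 0.28 for the sterol enzymes, 0.014 for the fatty acid enzymes and 1.02 for the regulators, against 0.84 over all tested genes. Below that median gene were 13 of 17 sterol enzymes, 10 of 13 fatty acid enzymes, 1 of 6 regulators and 1 of 2 exporters. For the regulators this count depended on the comparison and the scaling: 3 of 6 were below the median gene against Th2 in all 4 scalings, and 3 of 6 against the mean after quantile normalization. Calls moved with the scaling. With the median gene set to no difference, 2 genes were called higher (21.6% of tested genes) and 7 lower (19.7%). With equal medians 1 was higher (14.8%) and 13 lower (31.8%), and after quantile normalization 1 was higher (15.8%) and 12 lower (22.3%). Equal medians placed the median gene at -0.40 and quantile normalization at -0.21. In all 4 scalings 1 gene, Elovl5, was called higher (12.6% of tested genes) and 3, Hsd17b7, Fads2 and Acsl6, were called lower (6.63%). As deposited, Acsl6 had passed the filter on low values through its Th1 and Th17 arrays alone. Its lower call therefore partly follows from how it entered the test. Mvk, Fdps, Acaca and Scd2 were called lower in the 3 scalings other than the deposited one, where their differences were -0.75, -0.76, -0.27 and -1.04.

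**Figure D3:**
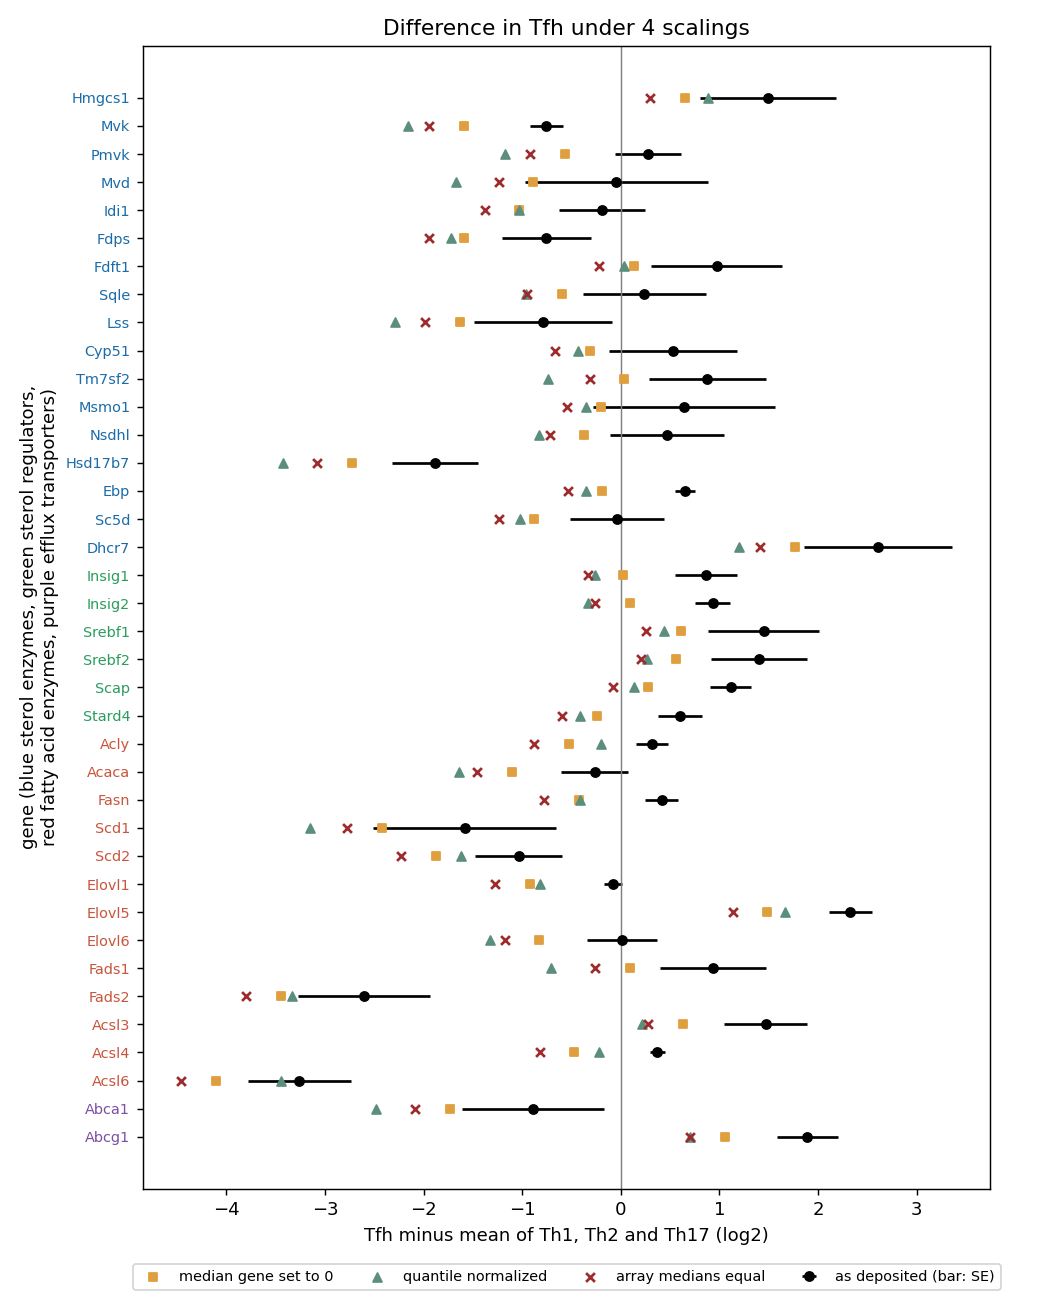
Tfh minus the mean of Th1, Th2 and Th17 (log2, x axis) for each of the 38 genes (y axis, coloured by role) as deposited, with the SE as a bar, and under the 3 other scalings. The points of the other scalings lie left of the deposited ones, and Elovl5 at 2.33 stays right of 1 while Hsd17b7, Fads2 and Acsl6 stay left of -1 in all 4. Acsl6 passed the filter on low values through its Th1 and Th17 arrays alone. The medians made equal are those of the tested genes in each array.

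Among the sterol enzymes, Dhcr7 and Hsd17b7 were the ones called, in opposite directions. Dhcr7, the 7-dehydrocholesterol reductase that makes cholesterol in the last step of the Kandutsch-Russell branch, had 8.84 and 8.85 in Tfh, 7.62 and 4.96 in Th1, 6.06 and 5.80 in Th2, and 7.24 and 5.73 in Th17. Both Tfh arrays were above all 6 cultured arrays, and the cultured arrays spread widely. It exceeded the cultured mean in Tfh by 2.61 (SE 0.75, limma adjusted p = 0.022, 6.10-fold). The call was lost without either Tfh array (adjusted p = 0.106 and 0.107) and under the 3 other scalings, and adjusted p over the 20 alternatives was 0.0029 to 0.19. Against Th2 alone the difference was 2.91 (adjusted p = 0.033), and that call was also lost without either Th2 array (adjusted p = 0.095 and 0.115).

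Hsd17b7 had 6.72 and 6.80 in Tfh, 8.74 and 7.12 in Th1, 9.82 and 10.31 in Th2, and 7.74 and 8.15 in Th17. Both Tfh arrays were below all 6 cultured arrays, and both Th2 arrays were above all others. Tfh minus Th2 was -3.30 (SE 0.53, limma adjusted p = 0.0026), a 9.88-fold lower value, which held in all 20 alternatives (adjusted p = 0.00047 to 0.024). Tfh minus the mean of the cultured types was -1.88 (SE 0.43, adjusted p = 0.0094). That call was lost without either Tfh array (adjusted p = 0.065 and 0.058). It was also lost with a probe set whose name carries no mark of shared sequence, where the difference was -0.87 (adjusted p = 0.179), and adjusted p over all its alternatives was 0.00078 to 0.179. Th1 minus Th2 was -2.14 (adjusted p = 0.14) and Th2 minus Th17 was 2.12 (adjusted p = 0.174), and neither was called. Its other probe sets also had their highest values in the Th2 arrays where they passed the filter: 1 read 7.49 and 8.31 in Th2 and 5.71 and 5.71 in Tfh, and another 7.29 and 8.04 in Th2 and 4.55 and 4.53 in Tfh.

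The other 15 sterol enzymes were not called as deposited. Ebp was above all 6 cultured arrays in both Tfh arrays and Mvk below all 6, while the other 13 overlapped. Over all tested genes 60.5% had both Tfh arrays above all cultured arrays and 13.8% below. Ebp differed by 0.65 (SE 0.10, limma adjusted p = 0.0018) and Mvk by -0.75 (SE 0.16, adjusted p = 0.0075), both under the fold threshold. For Mvk the probe sets disagreed: a second one read 5.33 and 5.32 in Tfh, 4.95 and 3.27 in Th1, 2.997 and 2.910 in Th2, and 3.57 and 3.53 in Th17, and so was higher in Tfh. Among the 13 that overlapped, other probe sets of Msmo1 and Sc5d were above all cultured arrays in Tfh and 1 of Lss was below. That of Sc5d read 7.44 and 7.46 in Tfh and 3.85 to 6.79 in the cultured arrays. That of Lss read 2.75 and 2.73 in Tfh and 3.95 to 4.44. Over all members, 8 of 45 other probe sets past the filter had the opposite sign of difference from the mean.

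All 6 regulators were higher in both Tfh arrays than in every cultured array, as 60.5% of all tested genes were. Srebf1, which encodes SREBP-1, had 10.67 and 10.58 in Tfh, 10.02 and 8.15 in Th1, 9.44 and 8.75 in Th2, and 9.94 and 8.79 in Th17. Its difference from the mean of the cultured types was 1.45 (SE 0.56, limma adjusted p = 0.059) and was not called. Srebf2, which encodes SREBP-2, had 10.10 and 9.99 in Tfh, 9.77 and 8.01 in Th1, 8.27 and 7.97 in Th2, and 9.36 and 8.50 in Th17. It was called higher against the mean, by 1.40 (SE 0.49, adjusted p = 0.042), and against Th2, by 1.92 (SE 0.60, adjusted p = 0.031). Both calls were lost without either Tfh or either Th2 array, and the first also without Th17 replicate 2. Over the alternatives adjusted p was 0.0041 to 0.72 for the mean and 0.0051 to 0.32 for Th2.

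Scap, the escort of the SREBPs, had 10.74 and 10.72 in Tfh, 10.14 and 9.60 in Th1, 9.31 and 9.29 in Th2, and 9.97 and 9.39 in Th17. The Tfh arrays were above all others, with the Th2 arrays lowest. It was called higher against the mean (1.11, SE 0.21, limma adjusted p = 0.0039), Th2 (1.43, adjusted p = 0.0038) and Th17 (1.05, adjusted p = 0.013). The call against Th17 was lost without either Tfh array (adjusted p up to 0.066), and, since the difference fell below 1, without Th17 replicate 2. Relative to the median gene the difference from the mean was 0.27, and with equal medians it turned to -0.080. Insig2 had 9.28 and 9.18 in Tfh, 8.45 and 8.11 in Th1, 8.66 and 8.31 in Th2, and 8.27 and 7.96 in Th17. It was called higher against Th17 by 1.11 (SE 0.22, adjusted p = 0.0059), a call lost without Th17 replicate 2, where the difference fell below 1, and with equal medians the difference was -0.048. Insig1 had 9.87 and 9.95 in Tfh, 9.48 and 8.23 in Th1, 9.37 and 9.19 in Th2, and 9.03 and 8.99 in Th17, and its 0.86 against the mean (adjusted p = 0.0495) was under the fold threshold. Stard4, a carrier of cholesterol between membranes, differed by 0.60. After the other scalings no regulator was called in any comparison.

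In the fatty acid arm Elovl5 was called higher and Fads2 and Acsl6 lower in all 4 scalings against the mean, while Acsl3 was called as deposited alone. Elovl5, the elongase of polyunsaturated fatty acids, had 12.37 and 12.46 in Tfh, 10.44 and 9.87 in Th1, 9.73 and 10.36 in Th2, and 10.02 and 10.11 in Th17. Both Tfh arrays were above every cultured array by a wide margin, and the cultured types overlapped. It was higher in Tfh by 2.33 against the mean (SE 0.22, limma adjusted p = 0.00025, 5.02-fold), by 2.26 against Th1, 2.37 against Th2 and 2.35 against Th17. All 4 calls held in all 20 alternatives, with adjusted p of 0.00017 to 0.0054 against the mean. Relative to the median gene the difference was 1.49. A second probe set gave 12.26 and 12.20 in Tfh and 9.66 to 10.48 in the cultured arrays.

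Fads2, the delta-6 desaturase that works in the same pathway, ran the other way. It had 3.61 and 3.55 in Tfh, 7.76 and 5.43 in Th1, 6.34 and 4.88 in Th2, and 6.26 and 6.44 in Th17. The Tfh values lay near the medians of all probe sets in those arrays (3.46 and 3.44). Whether the gene was above background in Tfh was not tested, and the size of a difference from Tfh depends on that low level. Both Tfh arrays were below all 6 cultured arrays. It was lower in Tfh than the cultured mean (-2.60, SE 0.67, limma adjusted p = 0.015), Th1 (-3.02, adjusted p = 0.020) and Th17 (-2.77, adjusted p = 0.028), while -2.03 against Th2 missed the threshold (adjusted p = 0.073). The call against the mean was lost without either Tfh array (adjusted p = 0.080 and 0.085), and over the alternatives its adjusted p was 0.0027 to 0.085. Without Th1 replicate 1 the call against Th1 was lost too, and without either Th17 array the call against Th17. 2 other probe sets of Fads2 were also lower in Tfh, with differences from the mean of -0.90 and -3.70. Fads1, the delta-5 desaturase, had a difference of 0.93 from the mean (adjusted p = 0.168).

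Acsl6, an acyl-CoA synthetase that activates long-chain fatty acids and is best known from brain, had the widest range of group means in the list. It had 2.18 and 2.16 in Tfh, 8.05 and 8.46 in Th1, 2.56 and 2.94 in Th2, and 6.32 and 4.25 in Th17. The Tfh and Th2 arrays lay below 3.13, the median of all deposited values, both Th1 arrays were above all others, and the Th17 arrays lay between. Whether the gene was above background in Tfh and Th2 was not tested, and the size of a difference from them depends on that floor. Tfh minus Th1 was -6.09 (SE 0.64, limma adjusted p = 0.00054), Tfh minus Th17 was -3.12 (adjusted p = 0.0070) and Tfh minus Th2 was -0.58 (adjusted p = 0.45). The difference from the mean was -3.26 (SE 0.52, adjusted p = 0.0021). The gene passed the filter on low values through its Th1 and Th17 arrays alone and was not tested when all 8 arrays had to pass, so these differences rest on a Tfh value below 3.13. A second probe set lay between 2.55 and 3.69 in all 8 arrays and did not show differences of this size. Its Tfh values (2.56 and 2.55) were below every cultured array. It read 3.29 and 3.47 in Th1, 3.09 and 3.14 in Th2, and 3.69 and 3.07 in Th17, so Th17 did not lie between.

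Acsl6 lies on chromosome 11 next to the cytokine genes Il3 and Csf2 in the RefSeq gene order, and the values of those neighbours were read for comparison. Il3 had 5.89 and 5.57 in Tfh, 14.55 and 14.94 in Th1, 12.85 and 14.55 in Th2, and 11.87 and 8.81 in Th17. Csf2 had 8.74 and 8.65 in Tfh, 13.13 and 13.79 in Th1, 12.66 and 12.83 in Th2, and 10.91 and 9.82 in Th17. Both were lowest in Tfh, as Acsl6 was, but were high in Th2, where Acsl6 was low. P4ha2, a collagen prolyl hydroxylase beyond Csf2, had 2.33 and 2.31 in Tfh, 7.11 and 4.87 in Th1, 3.85 and 3.92 in Th2, and 6.51 and 5.75 in Th17. Meikin, on the other side, stayed between 2.18 and 2.29. Beyond Meikin, Fnip1 overlapped, with 10.27 and 10.51 in Tfh and 9.82 to 10.78 in the cultured arrays. Rapgef6 and Cdc42se2 were higher in Tfh. Rapgef6 had 12.84 and 12.76 in Tfh and 10.83 to 11.76 in the cultured arrays, and Cdc42se2 11.97 and 11.89 against 9.02 to 9.72. Pdlim4, beyond P4ha2, was low in all arrays, with 1.86 and 1.85 in Tfh and 1.95 to 3.03 in the cultured arrays. These neighbours were picked by position and their values are a description.

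Acsl3, an acyl-CoA synthetase of the endoplasmic reticulum and lipid droplets, had 9.39 and 9.47 in Tfh, 8.51 and 6.93 in Th1, 8.50 and 7.93 in Th2, and 7.97 and 7.93 in Th17. It was called higher in Tfh against the mean (1.47, SE 0.42, limma adjusted p = 0.021), Th1 (1.71, adjusted p = 0.028) and Th17 (1.48, adjusted p = 0.046), with Tfh above all 6 cultured arrays. None of the 3 calls held without either Tfh array or under the other scalings, and over the alternatives the adjusted p against the mean was 0.0012 to 0.65. The call against Th1 was also lost without Th1 replicate 2, and that against Th17 without either Th2 or either Th17 array. Acly, Acaca and Fasn, which supply acetyl-CoA, make malonyl-CoA and build palmitate, differed from the mean by 0.32, -0.27 and 0.42, and none was called. Scd2, a desaturase, was below all 6 cultured arrays in Tfh, with 11.87 and 11.94 in Tfh, 13.80 and 12.47 in Th1, 12.89 and 12.56 in Th2, and 13.55 and 12.36 in Th17 (difference from the mean -1.04, SE 0.44, adjusted p = 0.078). In the probe sets used, the others, Scd1, Elovl1, Elovl6, Fads1 and Acsl4, differed by -1.59 to 0.93, and none was called. Other probe sets past the filter differed from these. For Scd1 another read 3.10 and 3.09 in Tfh and 4.50 to 8.22 in the cultured arrays (-3.88). For Scd2 another read 2.53 and 2.65 in Tfh and 6.68 to 8.98 (-5.01). These Tfh values lay below 3.13. Tfh was also below all 6 cultured arrays in another probe set of Acsl4 (-1.13), Acaca (-1.01), Elovl1 (-0.82) and Acly (-0.65). It was above all 6 in another of Elovl6 (2.04).

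**Figure D4:**
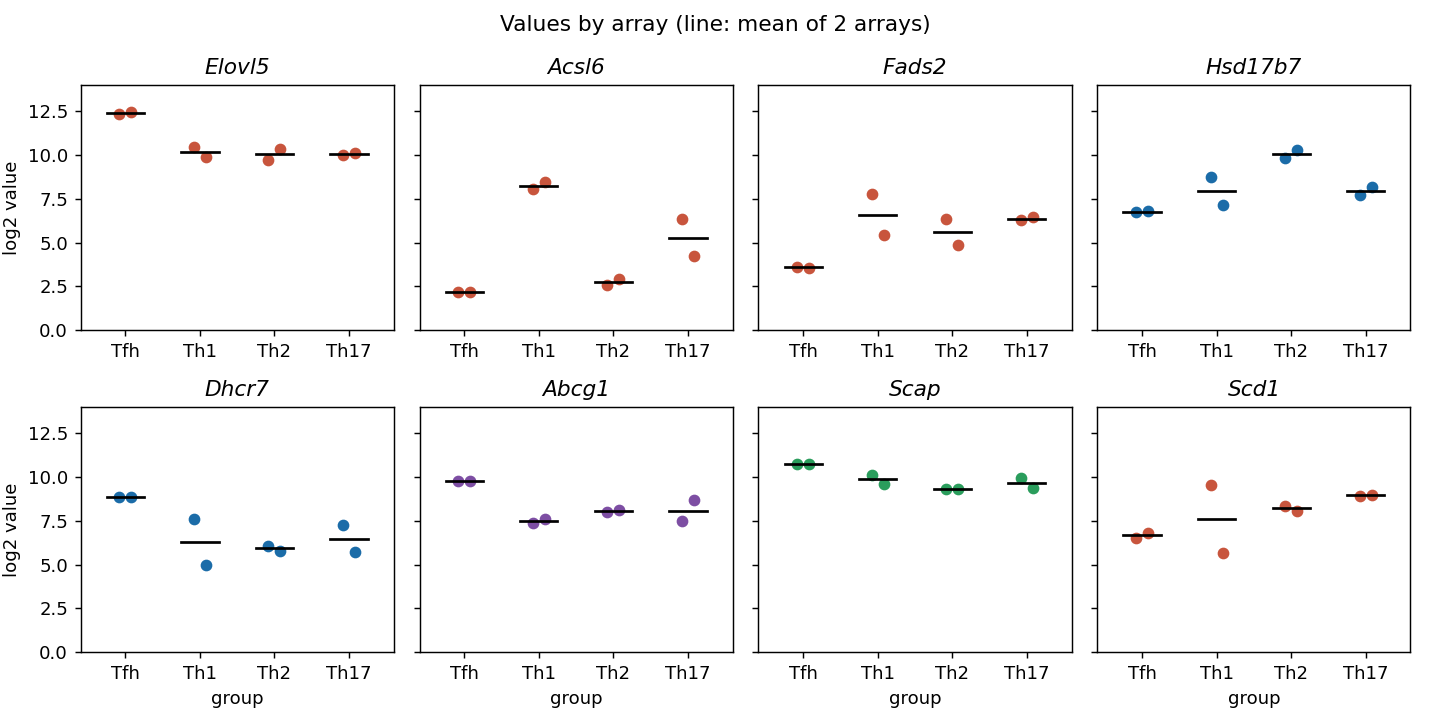
Log2 values (y axis) of 8 genes in each array (points) of the 4 groups (x axis), with a line at each group mean of 2 arrays and colours by role. Elovl5, Dhcr7, Abcg1 and Scap are highest in Tfh, Fads2 and Acsl6 lowest in Tfh, Hsd17b7 is highest in Th2 at 9.82 and 10.31, and the Th1 arrays of Scd1 lie apart at 9.52 and 5.69.

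The 2 cholesterol exporters differed from each other. Abcg1 had 9.76 and 9.77 in Tfh, 7.37 and 7.62 in Th1, 8.01 and 8.10 in Th2, and 7.48 and 8.67 in Th17, so that Tfh was above all other arrays. It was higher in Tfh by 1.89 against the cultured mean (SE 0.31, limma adjusted p = 0.0024), by 2.27 against Th1 (adjusted p = 0.0032), by 1.71 against Th2 (adjusted p = 0.0094) and by 1.69 against Th17 (adjusted p = 0.010). The call against the mean held with the median gene set to no difference (1.05, adjusted p = 0.029), was lost after quantile normalization (0.70) and with equal medians (0.70), and had an adjusted p of 0.0001 to 0.099 over its alternatives. The call against Th1 was lost after quantile normalization and with equal medians (adjusted p = 0.056 and 0.057). The calls against Th2 and Th17 were lost without either Tfh array (adjusted p = 0.051 to 0.055) and under the 3 other scalings, where the differences were 0.50 to 0.87 (adjusted p = 0.105 to 0.31). In the probe set used, Abca1 differed from the mean by -0.89 (SE 0.72, adjusted p = 0.30) and overlapped the cultured arrays. Other probe sets of Abca1 did not overlap and were lower in Tfh, by -3.22 and -1.05 from the mean. The former read 2.02 and 2.01 in Tfh and 3.94 to 5.91 in the cultured arrays. The latter read 2.53 and 2.49 in Tfh and 3.01 to 3.82 in the cultured arrays. These Tfh values lay below 3.13, and the size of the differences depends on that low level.

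Between the cultured types little passed the test. For Th1 minus Th2, 1 of 38 genes was called, against 1.24% of tested genes, namely Acsl6. It had passed the filter through its Th1 and Th17 arrays alone, and its Th2 arrays lay below 3.13. A second probe set differed by 0.27. In the probe set used, Acsl6 was higher in Th1 by 5.51 (SE 0.64, limma adjusted p = 0.023), a size that depends on the low Th2 value. The arrays did not overlap, but the call was lost without either Tfh, Th1 or Th2 array and in a fit on the 6 cultured arrays alone (adjusted p = 0.113), over a range of 0.0027 to 0.113 for all its alternatives. For Th1 minus Th17 limma called 0 of 38 (0.143% of tested genes), with 3 genes at an unadjusted p under 0.05 (Acsl4, Acsl6 and Elovl1) and 9.72% of all tested genes there. For Th2 minus Th17 limma called 0 of 38 (0.671%), with 4 at an unadjusted p under 0.05 (Acsl4, Acsl6, Elovl6 and Hsd17b7) and 13.5% of all tested genes there. The median difference of the sterol enzymes was 0.31 for Th1 minus Th2, 0.19 for Th1 minus Th17 and -0.058 for Th2 minus Th17. Without Th1 replicate 1 the first of these was -0.71 and the next -0.81, and without Th1 replicate 2 they were 1.08 and 0.99, so the direction in which Th1 differed followed the array kept. Without Th1 replicate 1, 3 genes were called lower in Th1 than in Th2 (1.04% of tested genes), namely Abca1, Hsd17b7 and Scd1, and 1, Scd1, lower than in Th17 (0.528%).

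Outside the list, 36 other genes of sterol and fatty acid handling had been named, of which 28 had a probe set and 21 were tested, while 8 were not analysed here. Against the cultured mean 9 of the 21 were called higher in Tfh (43.7% of all tested genes were) and 1 lower (6.66%), with a median difference of 0.99 beside 0.84 over all tested genes. With the median gene set to no difference 4 were higher (21.6%) and 5 lower (19.7%). These shares were near those of all tested genes. Lipa, the lysosomal acid lipase that frees cholesterol from its esters, was higher by 4.19 (SE 0.46, limma adjusted p = 0.00045), with 10.88 and 10.84 in Tfh and 5.75 to 7.41 in the cultured arrays. Lipa is also abundant in macrophages. The myeloid marker median given above was higher in Tfh than in 5 of the 6 cultured arrays, but single markers disagreed and Mrc1 was lowest in Tfh. The part of such cells in the result was not tested. Rnf145, a sterol-regulated ubiquitin ligase, was higher by 1.77 (adjusted p = 1.7e-05), Mbtps1, the protease that starts SREBP cleavage, by 1.45, and Ggps1, which makes geranylgeranyl pyrophosphate, by 1.36. Acss1, the mitochondrial acetyl-CoA synthetase, was higher by 2.93 and Cpt1a, which admits fatty acids to mitochondria for oxidation, by 1.98. Osbpl8, a lipid transfer protein, was called against Th17 alone (1.42, adjusted p = 0.00075). The calls of Mbtps1 and Ggps1 against the mean and of Osbpl8 against Th17 were lost under the 3 other scalings, that of Cpt1a against the mean after quantile normalization and with equal medians, and that of Rnf145 with equal medians and with the median gene set to no difference. Those of Lipa and Acss1 against the mean were made in all 4 scalings. Fabp5, a fatty acid binding protein, was lower by 1.49 on the log2 scale (-1.49, SE 0.23, adjusted p = 0.0020), with 11.54 and 11.64 in Tfh and 12.68 to 13.53 in the cultured arrays, and was called lower in all 4 scalings.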

How the data were processed

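The deposited values of 8 Affymetrix arrays were on the log2 scale and, per the submitters' processing notes, had been made by the authors with GCRMA. Neither its version nor which arrays were normalized jointly is given in the sources used here. Nothing was renormalized for the values reported as deposited. Of 45101 probe sets, 34945 had 1 gene symbol in the platform annotation, 932 several, 9160 none, and 64 were controls. A gene was tested if at least 2 arrays exceeded the 50th percentile of all values (3.13). Group means were fitted over the 8 arrays together with limma 3.58.1 (R 4.3.3), with trended empirical Bayes moderation (4 residual and 1.78 prior degrees of freedom), two-sided, with 7 comparisons. The number of arrays limits the precision. The SE is that of the moderated fit. The procedure was also run on simulated arrays with known changes put into some genes in Tfh and no shift of the rest. The general shift of the Tfh arrays seen here was not simulated, so that run does not bear on the scaling.

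The members and lists were chosen with earlier results of these data known. Values by array were given for genes called in any comparison, for the gene of each role with the widest range of group means, and for Srebf1, Srebf2 and Insig1. Values of Hmgcs1, Msmo1, Mvd, Mvk, Scd1, Scd2 and Abca1 were added after they were seen. Other pathway genes were named when called, up to 8 by smallest adjusted p. The scaling that sets the median gene to no difference was also added after the data were seen. Same-numbered replicates were checked for pairing, which the labels do not state. Over tested genes, their deviations correlated at 0.25 for Th1 with Th17 and 0.27 for Th2 with Th17, and near 0 for the other pairs. Whether the numbers pair the samples is not known, and the main fit did not use them.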

Additional observations from a re-analysis of the deposited data

How the results depend on the processing

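Counts of the 38 genes called higher and lower in Tfh were 3 and 2 against Th1, 5 and 1 against Th2, 5 and 2 against Th17, and 6 and 3 against the mean of the cultured types. With equal medians of the tested genes they were 1 and 10, 1 and 10, 1 and 11, and 1 and 13. After quantile normalization they were 1 and 9, 1 and 5, 1 and 10, and 1 and 12. With the median gene set to no difference they were 2 and 7, 1 and 5, 1 and 7, and 2 and 7. Scaling alone thus moved most calls of direction. With genes required above the median of all values in all 8 arrays, Tfh minus Th1 gave 5 and 1, the count lower than Th17 was 1, and Th1 minus Th2 gave 0. Acsl6, called in these 3 comparisons as deposited, was not tested under that requirement. With the mean of all probe sets of a gene, the counts higher were 6 against Th1 and 8 against Th2, and the counts lower were 3 against Th2, 5 against Th17 and 6 against the mean. Without the fold threshold, 8, 9 and 10 were higher than Th1, Th2 and the mean, and 2 lower than Th2. Counting the averaged Tfh arrays as 1 sample gave 2 and 1 against each type, 3 and 1 against the mean and 0 for Th1 minus Th2, which was also 0 on the cultured arrays alone. Whether the replicate numbers pair the samples is not known. With the replicate block, 6 were higher and 3 lower than Th1, 6 and 2 than Th2, 6 and 2 than Th17, and 7 and 4 than the mean.

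Leaving out each array in turn gave 2 to 15 higher and 1 to 10 lower against Th1, 2 to 8 and 1 to 4 against Th2, 2 to 8 and 1 to 5 against Th17, 3 to 11 and 1 to 7 against the mean, and 0 to 3 for Th1 minus Th2, 0 to 1 for Th1 minus Th17 and 0 to 1 for Th2 minus Th17. The ends against Th1 came without Th1 replicate 1 (15) and without Th1 replicate 2 (10). Removing the filter, choosing other probe sets by name, and fits with no trend or robust moderation kept every count within 1.5 times. Of the 38 differences from the mean, 24 were above 0 as deposited, 7 with equal medians, 9 after quantile normalization and 13 with the median gene set to no difference. Among the 28 calls made as deposited and the differences of Mvk, Fdps, Acaca and Scd2 from the mean, signs turned in 5 cases: Mvk against the mean with all probe sets averaged (0.52), Insig2 against Th17 after quantile normalization (-0.15) and with equal medians (-0.048), and Scap with equal medians against Th17 (-0.11) and the mean (-0.080). The causes were not tested. With 2 arrays a group, a gene that was not called may still differ.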
